A study of Mus musculus with 8 samples.

Results

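Nicotinic acetylcholine receptors are ion channels assembled from several subunits, and they open when acetylcholine binds. The 8 subunit genes described here were chosen by name, Chrna9, Chrna10, Chrna4, Chrnb2, Chrna3, Chrna5, Chrnb4 and Chrna7, out of 48823 genes counted. The names of 7 of them came from the authors' deposited table of normalized counts, and Chrna5, which that table does not list, was matched through a gene name table.

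RNA was sequenced from the utricle, a gravity-sensing organ of the inner ear, of C57BL/6 mouse embryos at day E15.5. The 4 mutant pools carried Rest(+/deltaExon4), in which 1 copy of Rest lacks exon 4, and the 4 others were wild-type. Every library is a pool of RNA from 7 to 9 mice, so no value of a single animal was measured, and a p-value given here measures the spread between such pools. The titles call the mutant pools knockouts, and the labels of wild-type replicate 4 give an age of E15.6 and a strain spelled C57BL/7.

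REST is a repressor protein that binds a DNA element called RE1 and keeps neuronal genes silent outside neurons, and in hair cells the inclusion of exon 4, an alternative exon, inactivates it. Vestibular hair cells receive cholinergic efferent fibres from the brainstem, and the receptor they use there is built from the α9 and α10 subunits. Neurons, those of autonomic ganglia among them, use receptors of other α subunits joined to β2 or β4, while α7 can form channels by itself.

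Read pairs on genes numbered 22.4 to 24.6 M per mutant library and 20.4 to 23.8 M per wild-type library, so 3 read pairs correspond to 0.121 to 0.145 CPM (counts per M read pairs on genes, after scaling between libraries). Of all read pairs, 11.9% to 18.3% in mutant pools and 18.4% to 22.2% in wild-type pools met no annotated exon. These pairs can lie in introns or between genes, and the ranges did not overlap. Rest itself was at 126.9 ± 3.20 CPM in mutant pools and 116.5 ± 7.35 CPM in wild-type pools (SD, n = 4 each; log2 change 0.12, edgeR adjusted p = 0.456), and every mutant pool was above every wild-type pool. Gene-level counts cannot show the loss of 1 exon, so this does not check the genotype. Wild-type replicate 3 stood apart in several neuronal genes. It had 61.9 CPM of the neuronal tubulin gene Tubb3, against 13.8 to 18.6 CPM in the remaining wild-type pools.

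Of the 8 subunit genes, 6 had enough reads to be tested, and Chrna5 and Chrna7 did not. Chrnb2 and Chrna10 fell in the mutant, none rose, and 4 did not pass (edgeR quasi-likelihood test, Benjamini-Hochberg adjusted p under 0.05 over 16990 genes). Over all genes tested, 1.02% fell and 0.147% rose by the same rule. All 6 log2 changes, mutant minus wild-type, were negative, as were 8581 of the 16990 genes tested. Their median was -0.89, against -0.0027 for all genes tested. Groups did not overlap for Chrnb2, Chrna10 and Chrna4, each lower in the mutant. This was so for 4.89% of all genes tested, and for 7.88% in either direction. Only genes with enough reads in enough libraries enter these counts, so they do not describe the 8 genes as a set.

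**Figure D1:**
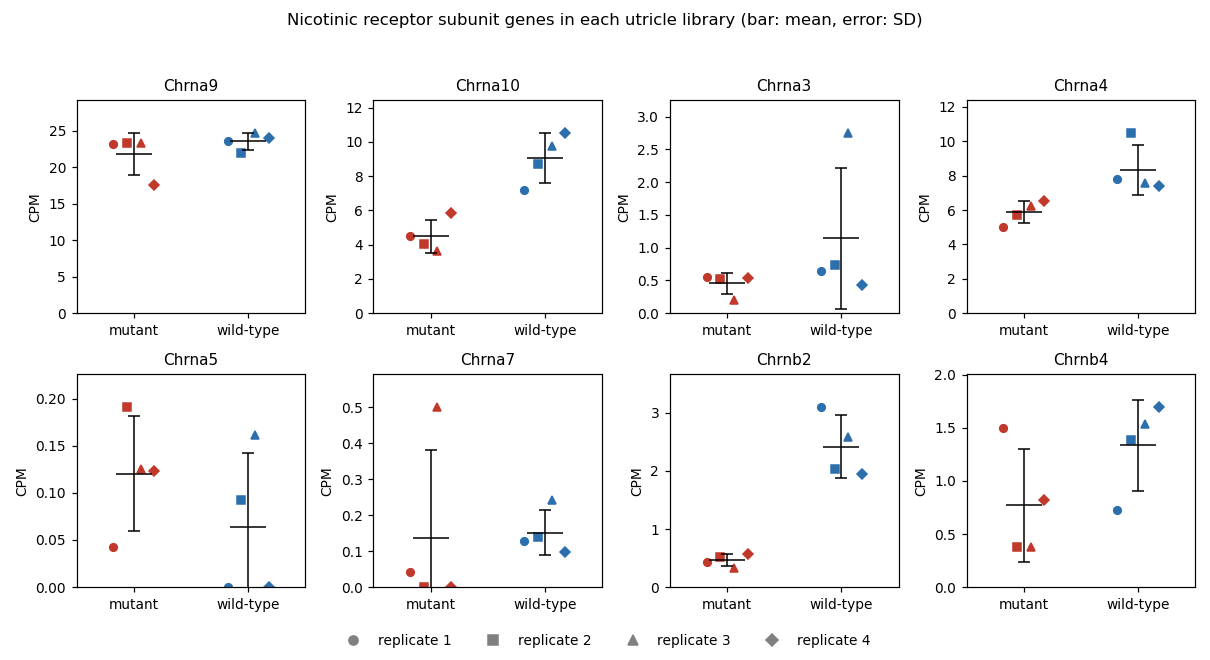
Level of each of the 8 subunit genes in CPM (y axis, a scale of its own for each gene, starting at 0) in the 4 mutant and 4 wild-type pools, where each symbol is 1 library and bars are the mean with SD. The mutant and wild-type symbols do not overlap for Chrna10, Chrna4 and Chrnb2, while those of Chrna9 lie between 17.6 and 24.7 CPM in both groups together.

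The RE1 element is the sequence through which REST acts, so a match to its core was searched for in each subunit gene. None of the 9 RefSeq promoter windows of these genes held a match with at most 3 mismatches, and the annotated transcripts were then searched, a step added after seeing the data. The core, of 17 bases with any base at the 2 middle positions, was searched on both strands. In the transcripts Chrnb2 was the only one of the 8 genes with an exact match, so the capitals of its line spell out the core. In all lines capitals are bases equal to it. The match of Chrnb2 is shown with 6 bases of flank on each side, and those of Chrna4, Chrna9 and Chrna10 are shown beside it as the closest ones in the subunits it is compared with.
Chrnb2: gcggctTCAGCACCacGGACAGCgctccg
Chrna4: TCAGggCCtaGaACAGC
Chrna9: TCAtCACCtgGGACtca
Chrna10: TgAaCACacaGGgCAGC

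The Chrnb2 sequence is at chr3:89764451-89764479 on the minus strand (GRCm38), and 2 annotated transcripts hold its exact core. In the longest of them the core lies in the 5′ UTR. There it starts 159 bases after the transcript start and ends 50 bases before the start codon. The nearest match in Chrna4 has 3 mismatches over the 15 defined bases and lies in the 3′ UTR at chr2:181023491-181023507, plus strand. Those of Chrna9 and Chrna10 have 4 mismatches each and lie in coding sequence, at chr5:65970875-65970891 and chr7:102113234-102113250, both plus strand. Chrna3 and Chrna7 came to within 3 mismatches, Chrnb4 to within 4 and Chrna5 to within 5.

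An exact core was found in annotated transcripts of 25 of 21951 protein-coding genes (0.114%), and a match with at most 3 mismatches in 25.4%. The looser match was present in 4 of the 8 subunit genes. In the promoter windows of RefSeq (GRCm38.p6), which run from 250 bases before to 50 after the start, 6 of 32851 windows (0.0183%) held the exact core and 1.84% a match with at most 3 mismatches. Of the genes with an exact core other than Chrnb2, whose fall was known before the search, 9 were tested. Of these 1 fell, Nek11 (log2 change -0.57 ± 0.12, SE, edgeR adjusted p = 0.0498), none rose, and their median log2 change was -0.07. Among protein-coding genes without an exact core 151 of 14389 fell, with a median of 0.02. A match describes letters only, and whether REST binds there was not measured.

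Chrna9 and Chrna10 encode the subunits of the efferent receptor of hair cells. They lie on different chromosomes, Chrna9 at chr5:65934921-65977326 on the plus strand and Chrna10 at chr7:102111266-102116828 on the minus strand (GRCm38). Chrna9 had 23.2, 23.3, 23.4 and 17.6 CPM in mutant pools, against 23.6, 22.0, 24.7 and 24 CPM in wild-type pools. Mutant replicate 4 was the lowest of the 8, and the other mutant pools lay within the wild-type range. That library was also the lowest mutant pool in 8 of 15 hair cell marker genes. Mutant replicates 1 to 3 were the lowest in 3, 1 and 3 of them. The transcription factor gene Gfi1 was among the 8 (7.94 CPM, against 12.7 to 15.05 CPM in the remaining mutant pools). Other markers went the other way, such as Myo7a, highest there among mutant pools (36.2 CPM, against 26.7 to 31.6 CPM). The 15 markers summed to 755 CPM in mutant replicate 4 and 765 CPM in mutant replicate 3. The part of these markers in the Chrna9 level of mutant replicate 4 was not tested. The log2 change was -0.11 ± 0.11 (SE, edgeR adjusted p = 0.717), with a 95% interval from -0.36 to 0.14. The log2 change of Chrna10, given next, lies outside this interval, but the ratio of Chrna10 to Chrna9 within libraries, given below, did not pass its test.

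Chrna10 had 4.50, 4.01, 3.63 and 5.85 CPM in mutant pools, against 7.19, 8.68, 9.79 and 10.5 CPM in wild-type pools. The highest mutant library was below the lowest wild-type library. Its mean was 4.50 ± 0.968 CPM in mutant pools and 9.04 ± 1.45 CPM in wild-type pools (SD, n = 4 each), 0.498 times the wild-type level. The log2 change was -1.01 ± 0.19 (SE, edgeR adjusted p = 0.0293), with a 95% interval from -1.43 to -0.58. The call did not hold in 6 of the 8 fits that leave out 1 library, with log2 changes of -1.01 to -0.91 and adjusted p of 0.0745 to 0.104 in those fits. It held without mutant replicate 4 and without wild-type replicate 1.

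Chrna10 shares 1025 of its 2628 exon bases (39%) with Art1, a gene on the other strand, and read pairs in shared exons are left out of the unstranded counts used here. The deposited strand columns keep them. The pairs of Chrna10 present only in those columns came to 3.56, 3.63, 3.26 and 4.01 CPM in mutant pools, against 8.04, 7.11, 8.86 and 8.24 CPM in wild-type pools. These reads, which the unstranded counts do not contain, again gave groups that did not overlap, at 0.448 times the wild-type mean. With the strand columns summed, the log2 change of Chrna10 was -1.07 (adjusted p = 0.00315), and the call held in all 8 fits without 1 library (adjusted p = 0.00419 to 0.0162). Art1, counted outside the shared bases, was at 7.16 ± 0.862 CPM in mutant pools and 7.73 ± 1.05 CPM in wild-type pools (log2 change -0.11, edgeR adjusted p = 0.8035). The library preparation does not mark strand, so pairs from Art1 are among the shared-exon pairs.

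The change of Chrna10 was next set against that of Chrna9 within each library, so that scaling cancels. Per 100 read pairs of Chrna9 there were 19.4, 17.2, 15.54 and 33.3 of Chrna10 in mutant pools, against 30.5, 39.5, 39.6 and 43.8 in wild-type pools. Mutant replicate 4 lay above wild-type replicate 1, so the groups overlapped. The log2 ratio differed by -0.90 (exact two-sided permutation test over 70 assignments, p = 0.0571, adjusted over 4 ratios p = 0.0762, smallest possible p = 0.0286). Against Pou4f3, a transcription factor gene that marks hair cells, the ratio of Chrna10 differed by -0.94 (exact p = 0.0571, adjusted p = 0.0762) and that of Chrna9 by -0.05 (exact p = 0.6, adjusted p = 0.6). The level of Pou4f3 was 110.6 ± 9.78 CPM in mutant pools and 116.1 ± 11.5 CPM in wild-type pools (SD, n = 4 each). Pou4f3 is itself among the tested genes with an exact RE1 core in a transcript (log2 change -0.07, edgeR adjusted p = 0.783). Per 100 read pairs of Pou4f3 there were 4.13 ± 1.20 of Chrna10 in mutant pools and 7.85 ± 1.45 in wild-type pools. For Chrna9 these numbers were 19.7 ± 1.72 and 20.4 ± 1.40. The lower ratios of Chrna10 to Chrna9 and to Pou4f3 did not pass the test with all 8 libraries. Without mutant replicate 4, the mutant pool with the highest of both ratios, each differed by -1.13. The unadjusted exact p was then 0.0286, the smallest that design allows. Leaving out any other library gave exact p of 0.0571 to 0.0857 for both ratios.

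Of 15 hair cell marker genes, all tested, 2 fell in the mutant and none rose, with a median log2 change of -0.13. These were Otof, which encodes the calcium sensor of hair cell synapses (84.2 ± 9.82 CPM in mutant pools and 167 ± 8.80 CPM in wild-type pools), and Ptprq, which encodes a hair bundle phosphatase (9.91 ± 1.79 and 17.3 ± 1.04 CPM). Of the 15 log2 changes 10 were negative. Among the others, Atoh1 was at 60.4 ± 16.1 CPM in mutant pools and 38.3 ± 10.4 CPM in wild-type pools (edgeR adjusted p = 0.238). Pvalb was at 21.8 ± 1.34 CPM in mutant pools and 14.1 ± 2.43 CPM in wild-type pools (edgeR adjusted p = 0.0517). The summed level of the 15 markers was 755 to 917.5 CPM in mutant pools and 863 to 988 CPM in wild-type pools, so the sums overlapped. In a whole organ, fewer cells of a type and less RNA per cell cannot be told apart.

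Chrna4 and Chrnb2 encode the α4 and β2 subunits, which together form the most common heteromeric receptor of the brain. Chrnb2 lies at chr3:89746195-89764632 and Chrna4 at chr2:181018380-181043546, both on the minus strand (GRCm38). Chrnb2 had 0.429, 0.526, 0.334 and 0.573 CPM in mutant pools, against 3.10, 2.03, 2.59 and 1.94 CPM in wild-type pools. All 4 mutant pools were below all 4 wild-type pools. In read pairs these were 10, 11, 8 and 14 in mutant pools and 73, 44, 64 and 40 in wild-type pools. The log2 change was -2.37 ± 0.31 (SE, edgeR adjusted p = 0.00317, 95% interval -3.04 to -1.69). By this fit the wild-type level was 5.16 times the mutant level. The call held in all 8 fits without 1 library, with adjusted p of 0.00803 to 0.0172.

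Chrnb2 shares 1365 of its 8380 exon bases (16.3%) with Adar, an RNA-editing enzyme gene on the other strand. Adar was at 9.94 ± 1.06 CPM in mutant pools and 9.34 ± 0.895 CPM in wild-type pools (log2 change 0.09, edgeR adjusted p = 0.815). Pairs in the shared exons were at 4.41 ± 0.18 CPM in mutant pools and 5.02 ± 1.14 CPM in wild-type pools, more than the whole unshared count of Chrnb2 in either group. When they are added to Chrnb2 by summing the strand columns, its log2 change is -0.61 and the call is lost (adjusted p = 0.167). The fall of Chrnb2 therefore rests on the reads outside the shared exons.

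Chrna4 had 5.02, 5.74, 6.26 and 6.50 CPM in mutant pools, against 7.82, 10.5, 7.56 and 7.42 CPM in wild-type pools. The groups did not overlap, and wild-type replicate 2 was the highest of the 8. The log2 change was -0.50 ± 0.16 (SE, edgeR unadjusted p = 0.0116, adjusted p = 0.232), with a 95% interval from -0.86 to -0.14, so the difference did not pass over all genes. Of the 6 subunit genes tested, 4 had an unadjusted p under 0.05, as had 2273 of the 16990 genes tested.

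Some markers of ganglion neurons fell together with Chrnb2. Of 16 such genes, all tested, 4 fell in the mutant and none rose, with a median log2 change of -0.40. They were the neurofilament genes Nefl and Nefm, the glutamate transporter gene Slc17a6 and the synaptic fusion gene Snap25. Nefm was at 100.4 ± 3.31 CPM in mutant pools and 254 ± 27.1 CPM in wild-type pools (SD, n = 4 each). Slc17a6 was at 0.356 ± 0.293 CPM in mutant pools and 3.85 ± 2.005 CPM in wild-type pools. The summed level of the 16 markers was 421 to 495 CPM in mutant pools and 619.7 to 922 CPM in wild-type pools, and the highest sum was that of wild-type replicate 3. Most of this gap lay in Nefm and Nefl (72.4 ± 11.6 CPM in mutant pools and 134 ± 24.6 CPM in wild-type pools). The other 14 markers summed to 262 to 326 CPM in mutant pools and 269.7 to 471 CPM in wild-type pools, which overlapped. The most abundant of these 14, the transcription factor gene Isl1, was at 147 ± 13.4 CPM in mutant pools and 146 ± 12.6 CPM in wild-type pools. Isl1 thus held a large part of their sum. Which cells of the organ gave the reads of Isl1, or those of the 4 markers that fell, was not tested. Gap43, a growth cone gene, was at 36.7 ± 3.17 CPM in mutant pools and 33.1 ± 10.99 CPM in wild-type pools. The part of these markers in the lower Chrnb2 level was not tested. Of markers of supporting cells, Schwann cells, macrophages and mesenchyme, 10 of 10, 6 of 7, 6 of 6 and 6 of 6 genes were tested and none passed, with median log2 changes of 0.06, 0.05, 0.0073 and 0.09.

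Per 100 read pairs of Tubb3 there were 2.85, 2.58, 2.03 and 3.04 of Chrnb2 in mutant pools, against 16.7, 13.1, 4.18 and 14.0 in wild-type pools. Wild-type replicate 3, in which Tubb3 was high, lay closest to the mutant pools, and the groups did not overlap. The log2 ratio differed by -1.98 (exact two-sided permutation p = 0.0286, the smallest the design allows, adjusted over 4 ratios p = 0.0762). Tubb3 itself overlapped between the groups, at 15.05 to 20.4 CPM in mutant pools and 13.8 to 61.9 CPM in wild-type pools.

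Chrna3, Chrna5 and Chrnb4 lie side by side on chromosome 9, at positions 54980880 to 55048779 (GRCm38), with Chrna5 on the plus and Chrna3 and Chrnb4 on the minus strand. They encode α3, which with β4 forms the receptor of autonomic ganglia, and α5, an accessory subunit. Chrnb4 had 1.501, 0.382, 0.376 and 0.818 CPM in mutant pools, against 0.723, 1.39, 1.54 and 1.70 CPM in wild-type pools. Mutant replicate 1 lay within the wild-type range, so the groups overlapped. The log2 change was -0.79 ± 0.47 (SE, edgeR adjusted p = 0.5003), with a 95% interval from -1.83 to 0.26.

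Chrna3 had 0.557, 0.526, 0.209 and 0.532 CPM in mutant pools, against 0.638, 0.739, 2.75 and 0.436 CPM in wild-type pools. Wild-type replicate 3 held 68 of the 108 wild-type read pairs and the groups overlapped. The log2 change was -1.33 ± 0.60 (SE, edgeR adjusted p = 0.371), and without wild-type replicate 3 it was -0.41 (adjusted p = 0.756). That library was also the highest in Tubb3, in the peripherin gene Prph (48.7 CPM, against 3.25 to 9.23 CPM in the remaining wild-type pools) and in the growth cone gene Stmn2 (42.7 CPM, against 5.72 to 11.1 CPM). The part of neuronal tissue in its Chrna3 reads was not tested.

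Chrna5 had 1, 4, 3 and 3 read pairs in mutant pools, against 0, 2, 4 and 0 in wild-type pools. Chrna7, at chr7:63098692-63212569 on the minus strand, had 1, 0, 12 and 0 read pairs in mutant pools, against 3, 3, 6 and 2 in wild-type pools. Both were under the filter on low counts, and 3 counts in a library are the limit that a count of 0 allows. Summed over 4 libraries, Chrna5 had 11 read pairs in mutant pools and 6 in wild-type pools, a ratio of 1.79 with a counting interval of 0.607 to 5.9. Chrna7 had 13 in mutant pools and 14 in wild-type pools, a ratio of 0.907 (0.393 to 2.08), and mutant replicate 3 gave 12 of its 13. A difference in either gene was not detectable at this depth.

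Levels can be compared between genes only per length, so read pairs were divided by the exon bases that each gene does not share (FPKM, CPM per kilobase of these bases). The bases were taken over all annotated transcripts of a gene, whichever are expressed, so multiples between genes depend on that choice. Chrna9 was the highest in both groups, at 7.23 ± 0.941 FPKM in mutant pools and 7.79 ± 0.381 FPKM in wild-type pools (SD, n = 4 each). Chrna10 followed at 2.81 ± 0.604 FPKM in mutant pools and 5.64 ± 0.906 FPKM in wild-type pools, and Chrna4 at 1.17 ± 0.131 and 1.66 ± 0.289 FPKM. The ranges of these 3 genes did not overlap each other in either group.

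Below these, levels in wild-type pools lay close together. They were 0.359 ± 0.115 FPKM for Chrnb4, 0.344 ± 0.0771 FPKM for Chrnb2 and 0.217 ± 0.205 FPKM for Chrna3, which do not differ beyond their spread. For Chrna3 this rests on wild-type replicate 3, without which it was at 0.115 ± 0.0293 FPKM (SD, n = 3), with its highest value of 0.140 FPKM below the lowest of Chrnb2, 0.277 FPKM. In mutant pools Chrnb4 was at 0.207 ± 0.142 FPKM, Chrna3 at 0.0866 ± 0.0314 FPKM and Chrnb2 at 0.0663 ± 0.0151 FPKM. Chrnb2 thus stood beside Chrnb4 in wild-type pools and at the level of Chrna3 in mutant pools. Chrna5 and Chrna7 were the lowest, at 0.0386 ± 0.0194 and 0.0302 ± 0.0542 FPKM in mutant pools and 0.0203 ± 0.0252 and 0.0336 ± 0.0141 FPKM in wild-type pools.

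**Figure D2:**
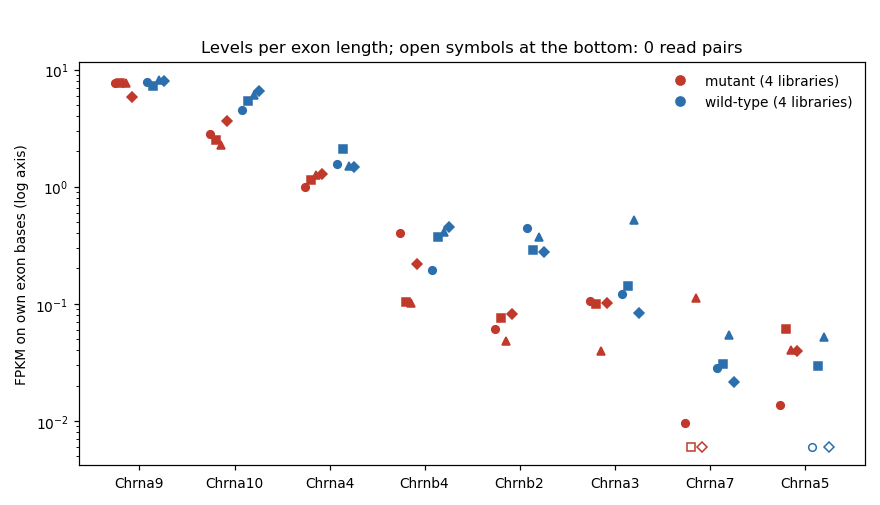
Level per exon length (FPKM, log axis) of the 8 subunit genes in each library, with mutant symbols left of wild-type symbols and open symbols at the bottom for libraries with 0 read pairs. Chrna9, Chrna10 and Chrna4 lie near or above 1 FPKM, and the other 5 genes lie at or below 0.522 FPKM in every library.

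The efferent and the neuronal subunits were then compared as sums. Chrna9 and Chrna10 together came to 10.5, 10.2, 9.99 and 9.46 FPKM in mutant pools, against 12.3, 12.7, 14.3 and 14.5 FPKM in wild-type pools. The 6 neuronal subunits came to 1.59, 1.48, 1.59 and 1.74 FPKM in mutant pools, against 2.34, 2.95, 2.92 and 2.31 FPKM in wild-type pools. Both sums were lower in all mutant pools, and most of the difference in the efferent sum lay in Chrna10, while Chrna9 overlapped between the groups. The efferent subunits made up 86.2% ± 1.23 of the total in mutant pools and 83.6% ± 2.12 in wild-type pools, with overlapping ranges of 84.5% to 87.3% and 81.1% to 86.2%. No test was run on these sums, because the genes were chosen with results known.

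**Figure D3:**
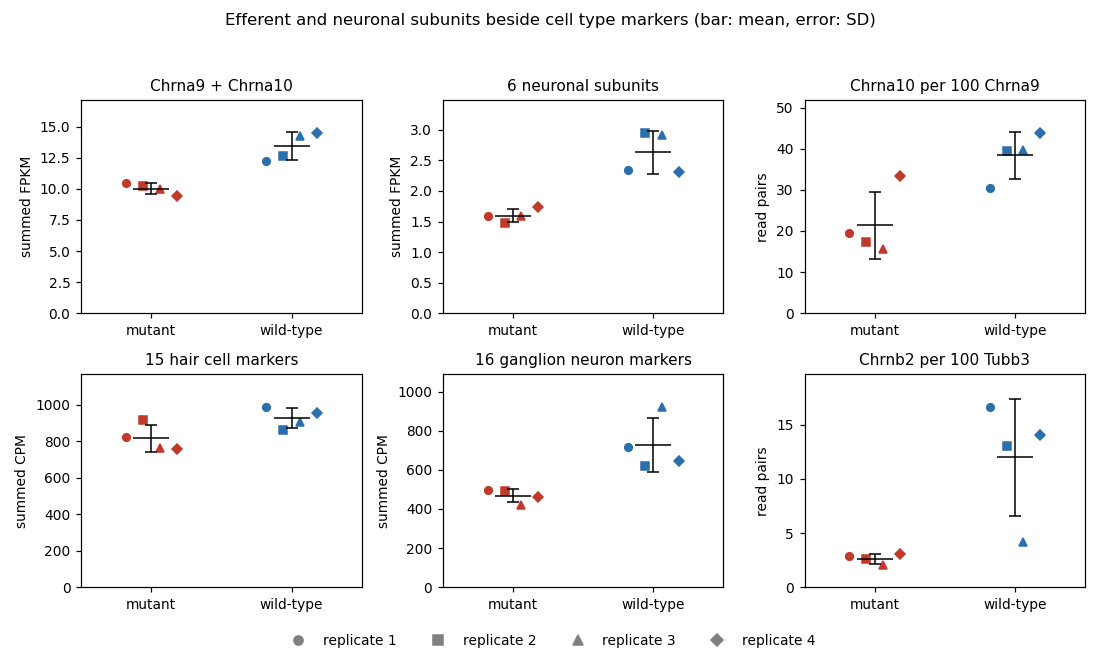
Upper row, from left: summed FPKM of Chrna9 and Chrna10, summed FPKM of the 6 neuronal subunits, and read pairs of Chrna10 per 100 of Chrna9. Lower row: summed CPM of 15 hair cell markers, summed CPM of 16 ganglion neuron markers, and read pairs of Chrnb2 per 100 of Tubb3. Each symbol is 1 library (mutant left, wild-type right), bars are the mean with SD, and all y axes start at 0. Only the Chrna10 to Chrna9 ratio and the hair cell marker sum overlap between the groups.

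Within each kind the proportions differed more. The level of Chrna9 was 2.70 ± 0.790 times that of Chrna10 in mutant pools and 1.41 ± 0.229 times in wild-type pools, with ranges of 1.59 to 3.41 and 1.21 to 1.74 that overlapped. The level of Chrna4 was 18.4 ± 5.21 times that of Chrnb2 in mutant pools and 5.04 ± 1.63 times in wild-type pools, with ranges of 15.2 to 26.2 and 3.52 to 7.21 that did not overlap. Chrnb2 made up 4.15% ± 0.922 of the neuronal sum in mutant pools and 13.3% ± 3.89 in wild-type pools.

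Neighbouring genes were examined for a change across the region. Of the nearest protein-coding genes on each side of the subunit genes, 8 of 12 were tested and none passed. Beside Chrnb2 these were Adar and Ube2q1 (17.3 ± 1.58 CPM in mutant pools and 16.2 ± 3.67 CPM in wild-type pools, edgeR adjusted p = 0.835). Beside Chrna10 they were Art1 and the nucleoporin gene Nup98 (484.5 ± 91.2 and 404.5 ± 15.3 CPM, adjusted p = 0.379).

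The other nicotinic subunit genes, most of them those of muscle, were tested in 4 of 8 cases and none passed, with a median log2 change of -0.09. Chrna1, the muscle α subunit, was at 13.4 ± 2.11 CPM in mutant pools and 20.9 ± 2.39 CPM in wild-type pools with groups that did not overlap (edgeR adjusted p = 0.0614). Chrng, the fetal γ subunit, was at 62.6 ± 7.59 CPM in mutant pools and 71.6 ± 3.96 CPM in wild-type pools (adjusted p = 0.397). The summed level of 11 skeletal muscle markers, which include these genes, was 163 to 169 CPM in mutant pools and 152 to 194 CPM in wild-type pools. Of those 11 markers 1 rose, the muscle transcription factor gene Myog, and none fell.

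Receptor chaperones and the small surface proteins of the Ly6 family that bind the receptors were tested in 9 of 10 cases, and none passed (median 0.01). The most highly expressed were Ly6e, at 159.5 ± 25.2 CPM in mutant pools and 145 ± 4.55 CPM in wild-type pools, and Lypd6, at 36.0 ± 6.79 and 31.0 ± 3.37 CPM. Genes that act with the efferent receptor in hair cells, namely potassium channels, ryanodine receptors, calcium pumps and others, were tested in 10 of 11 cases, and 1 fell (median 0.07). This was Atp2a3, which encodes a calcium pump of the endoplasmic reticulum.

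Atp2a3 had 1.67, 0.812, 0.835 and 1.19 CPM in mutant pools, against 3.32, 4.80, 5.46 and 3.30 CPM in wild-type pools. The groups did not overlap, and the log2 change was -1.90 ± 0.30 (SE, edgeR adjusted p = 0.0116). Its relative Atp2a2 was at 32.2 ± 3.16 CPM in mutant pools and 30.0 ± 3.42 CPM in wild-type pools (adjusted p = 0.727). Kcnn2, the potassium channel that the α9α10 receptor opens by way of calcium, was at 2.09 ± 0.102 CPM in mutant pools and 1.67 ± 0.278 CPM in wild-type pools (adjusted p = 0.580).

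Genes of acetylcholine synthesis, uptake and breakdown were tested in 3 of 7 cases and none passed (median 0.06). Bche, an enzyme that cleaves acetylcholine, was at 15.63 ± 4.43 CPM in mutant pools and 15.04 ± 4.23 CPM in wild-type pools. Slc5a7, the choline transporter, was at 3.91 ± 1.04 CPM in mutant pools and 3.70 ± 1.44 CPM in wild-type pools. Of 5 muscarinic receptor genes, Chrm1 alone was tested (1.99 ± 0.175 CPM in mutant pools and 2.42 ± 0.376 CPM in wild-type pools, edgeR adjusted p = 0.605).

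**Figure D4:**
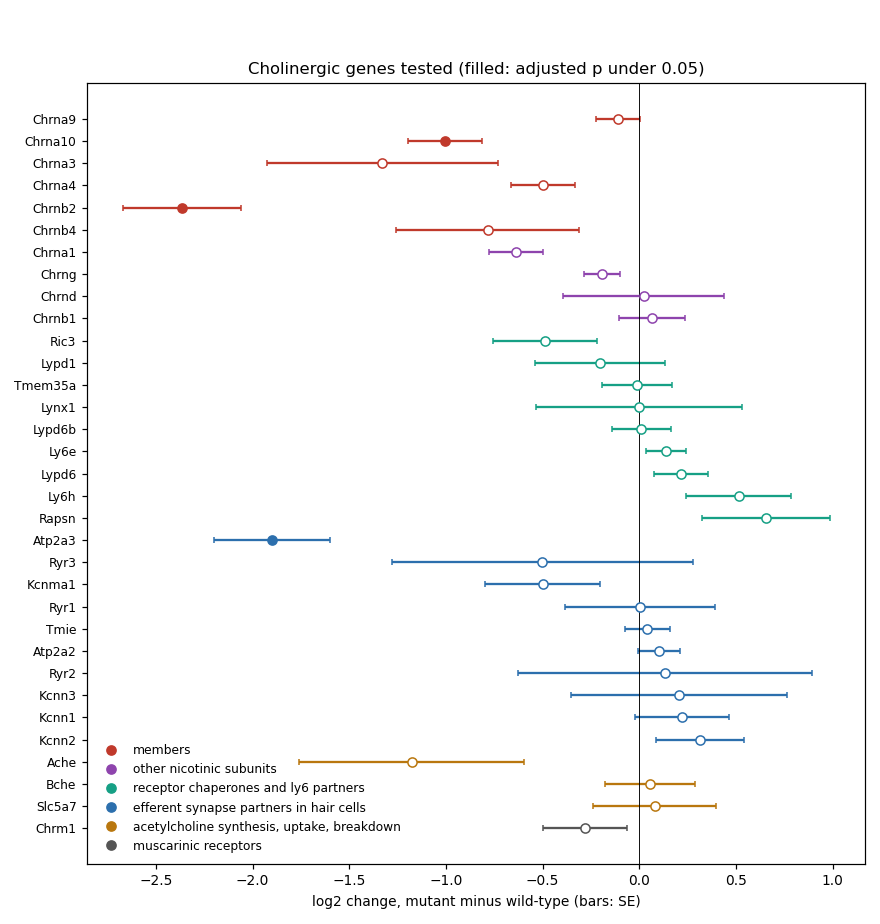
Log2 change, mutant minus wild-type (x axis), with SE as bars, of the 6 subunit genes tested and of the tested genes of 5 related lists, named by colour. Filled symbols passed an adjusted p of 0.05 over all genes: Chrna10, Chrnb2 and Atp2a3, all lower in the mutant.

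The 5 genes most like each of Chrna9, Chrna10 and Chrnb2 were taken by Pearson's r of log2 CPM over the 8 libraries, among 12600 protein-coding genes with a mean of at least 2 CPM. For Chrnb2 they were Chga (r = 0.989), Tex52 (0.984), Kcnh6 (0.984), Scg3 (0.983) and Nefm (0.981), all of which fell. For Chrna10 they were Mapk10 (r = 0.973), Aph1c (0.959), Rsph4a (0.953), Dnmbp (0.9499) and Rtp1 (0.9497), of which Rtp1 alone fell (log2 change -1.91, edgeR adjusted p = 0.00408). For Chrna9 they were Sat2 (r = 0.972), Bscl2 (0.967), Gm12258 (0.939), Ank (0.939) and Etnk1 (0.938), none of which passed. The points share genotype, library and depth. When r is taken over deviations from the group means, 1 of the 5 genes stays among the first 5 for Chrna9, and none for Chrna10 and Chrnb2.

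**Figure D5:**
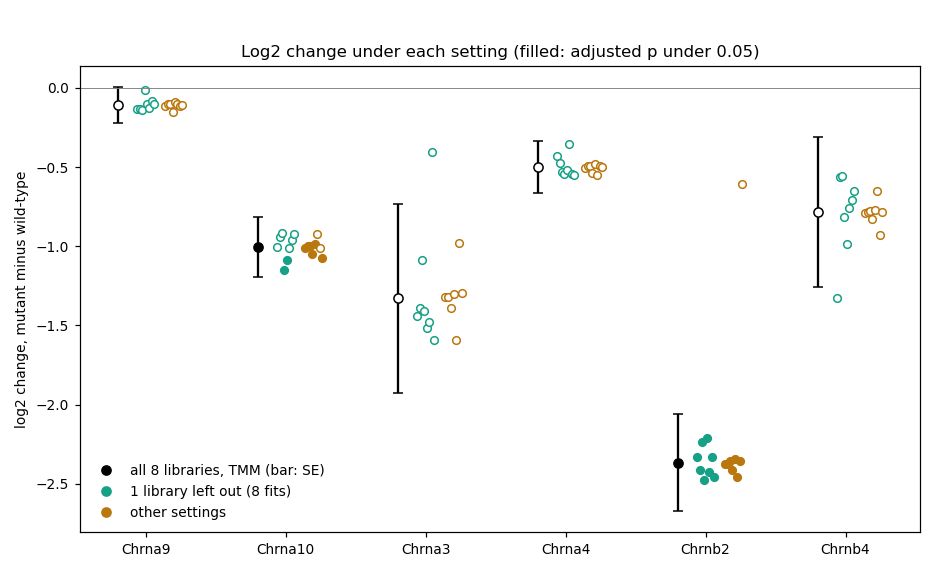
Log2 change, mutant minus wild-type (y axis), of the 6 subunit genes tested, with all 8 libraries (black, bar SE), with 1 library left out (green) and with other tools, scalings, filters, counts or the replicate block (brown). Filled symbols passed an adjusted p of 0.05. Chrnb2 is filled at every symbol except the one with shared-exon reads at -0.61, and Chrna10 is open in 6 of the 8 green symbols.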

How the data were processed

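Per the labels' protocols, cDNA was made from total RNA with an oligo-dT primer and template switching, amplified by PCR, tagmented and read as pairs. The submitters' processing notes name STAR 2.5.2a, DESeq2 and the build GRCm38.p4. The annotation release is not given in the sources used here. The authors deposited whole-number counts of read pairs per gene and library. A second table deposited by the authors holds a signal, counts divided by a size factor per library, for 21369 genes and 7 libraries (wild-type replicate 4 is not among them). Its values gave 100% whole reads (tolerance 0.001 reads) equal to the deposited counts, and the count test on them called 112 genes lower and 17 higher.

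The unstranded counts were used, since each strand column held 53.2% to 53.4% of them. Lines that name no gene held 25.2% to 33.9% of read pairs and were left out. Genes were kept by filterByExpr (minimum count 10, minimum total 15), scaled by TMM and tested with edgeR 4.0.16 (R 4.3.3) by the quasi-likelihood test, with Benjamini-Hochberg adjustment over all genes tested. The SE is the size of the log2 change divided by the square root of F. Ratios within libraries used a pseudocount of 0.5 counts. Counting intervals and floors cover counting error only. The test was checked on simulated counts.

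Exons and coordinates came from GENCODE M21 (GRCm38), and 5 of the 8 subunit genes carry the same identifier version there. Promoters came from RefSeq. Protein sequences were not used here. The subunit genes, lists, markers and tests were chosen with earlier results of these data known. Of each list, genes past the threshold are named, and otherwise the 2 with the highest mean. Atp2a2, Kcnn2, Chat, Gfi1, Myo7a, Isl1, Gap43, Tubb3, Prph, Stmn2, Nek11, Chrne, Colq and Slc18a3 were named after their values were seen. So were Atoh1 and Pvalb. Alternatives were DESeq2 1.42.0, other scalings and filters, summed strand columns, a replicate block and leaving out each library. The search of transcripts, the recovered reads and the strand sums without 1 library were added after seeing the data.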

Additional observations from a re-analysis of the deposited data

Results flagged for a closer look

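A library was marked where its gap to the nearest other library of its group, divided by the range of the group, was above Dixon's 95% critical value for 4 samples. This occurred in 5 of 16 groups of 4. The rate of about 1 in 20 that chance gives holds for normally distributed values, not for genes with few read pairs. The 5 of 16 are therefore no measure of an excess. Chrna9 was lowest in mutant replicate 4, at 17.6 CPM against 23.2 to 23.4 CPM in the remaining mutant pools. In the same library 8 of 15 hair cell marker genes were at their lowest among the mutant pools, while the marker Myo7a was at its highest. Chrna3 was lowest in mutant replicate 3, at 0.209 CPM against 0.526 to 0.557 CPM, and highest in wild-type replicate 3, at 2.75 CPM against 0.436 to 0.739 CPM in the remaining wild-type pools. Chrna4 was highest in wild-type replicate 2, at 10.5 CPM against 7.42 to 7.82 CPM. Chrna7 was highest in mutant replicate 3, at 0.501 CPM against 0 to 0.0429 CPM, from 12 read pairs.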

How the results depend on the processing

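Chrnb2 and Chrna10 were lower in the mutant under every alternative run. The call of Chrnb2 was lost only with summed strand columns (-0.61). That of Chrna10 was lost with the replicate block, given below, and in 6 fits that leave out 1 library. Its log2 change was -1.15 to -0.91 over all 8 such fits, and -1.18 to -1.01 with summed strand columns, where none was lost. The authors' 7 libraries are those of the fit without wild-type replicate 4, 1 of the 6 (-0.92, edgeR adjusted p = 0.0985). Genes lower numbered 173, against 411 with DESeq2, 112 in the authors' 7 libraries and 105 to 140 without 1 library; genes higher numbered 25, against 153 with DESeq2 and 12 to 28 without 1 library. With the replicate number as a block, the log2 change of Chrna10 was -1.01 (adjusted p = 0.0815), and 80 genes were lower and 16 higher. Same-numbered libraries did not deviate together (correlations of -0.0952 to 0.0303). These values gave no sign that the numbers pair the libraries, but they cannot exclude a shared preparation. Without 1 library the log2 ratio of Chrna10 to Chrna9 was -1.13 to -0.77 and that of Chrna10 to Pou4f3 -1.13 to -0.86. For both, exact permutation p was 0.0286 without mutant replicate 4 and 0.0571 to 0.0857 without any other library. The log2 ratio of Chrnb2 to Tubb3 was -2.43 to -1.76, where exact permutation p was 0.0571 without any 1 mutant library. That of Chrna9 to Pou4f3 was -0.10 to 0.0001016, turning sign without mutant replicate 4. Chrna9, Chrna4, Chrna3 and Chrnb4 kept direction and missed the threshold in all alternatives run; Chrna3 did not enter the stricter filter. The scalings moved the median of all genes to between -0.05 and 0.0045. Depth limits Chrna5 and Chrna7. The causes were not tested.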

Other observations

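Some cholinergic genes under the filter on low counts are given as read pairs. Chrne, the adult muscle ε subunit, had 11, 10, 5 and 9 read pairs in mutant libraries, against 2, 0, 0 and 0 in wild-type libraries. The sums of 35 in mutant and 2 in wild-type libraries have a ratio of 17.1 with a counting interval of 4.39 to 147, and tested with no filter on low counts Chrne had an edgeR adjusted p of 0.0994. Colq, which anchors acetylcholinesterase, had 12 read pairs in mutant and 41 in wild-type libraries, a ratio of 0.286 (0.137 to 0.555, adjusted p = 0.400 with no filter). Slc18a3, the vesicular acetylcholine transporter, had 0 read pairs in mutant libraries and 12 in wild-type libraries, all of them in wild-type replicate 3. Chat, the enzyme that makes acetylcholine, had 0 in mutant and 1 in wild-type libraries.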
